A study of Capra hircus with 4 samples.

Results

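Iron handling genes were followed in secondary hair follicle stem cells, which come from the follicles that make the fine undercoat of cashmere goats (Capra hircus). The set was given as 9 gene symbols, namely LOC102172205 (described in the files as serotransferrin), TFRC, FTH1, FTL, SLC40A1, SLC11A2, IREB2, ACO1 and NCOA4. Rows were taken where the gene symbol matched, which found 8 of the 9 among 20326 genes, and SLC11A2, a divalent metal transporter, was not found by its symbol and is not analysed here. The set was selected on roles in iron handling with the mid and early anagen values already known, among them the high mid anagen values of serotransferrin. The 2 groups were mid anagen, with cells taken from dorsal skin in October, and early anagen, with cells taken in April, and each had 1 female and 1 male library. No treatment or genetic change is named for either group, all cells were isolated and cultured before RNA extraction, and the labels call the libraries biological replicates without naming the animals, so p-values measure only the spread between these libraries. The comparison asks how these cells change between the 2 points of the cashmere growth phase.

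Cells take up iron as transferrin, a secreted iron carrier, which binds the transferrin receptor at the surface and is drawn into endosomes. Iron that is not used at once is stored inside ferritin, a hollow shell of heavy and light chains, and leaves the cell through ferroportin. A pair of iron regulatory proteins, the products of ACO1 and IREB2, bind RNA hairpins when iron is scarce, which stabilises the receptor mRNA and blocks translation of ferritin mRNA. Much of this control therefore acts on translation and is not visible in mRNA levels, and transferrin itself is best known as a product of the liver.

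All values are the deposited abundances per gene, which are normalised for length and were rescaled between libraries, so levels of different genes can be set side by side. Library totals were 933211 and 844960 in the mid anagen female and male and 1068429 and 1186966 in the early anagen female and male, while the typical gene was at a like level in all, with a median ratio of 0.9898 to 1.018 to its own geometric mean. The number of reads is unknown, so no counting error can be given. Keratinocyte markers were abundant in every library, with KRT14, a basal keratin, at 9603 and 8956 in mid anagen and 20590 and 23510 in early anagen cells, and all 9 basal markers were at or above the filter. The bulge factor LHX2 was at 31.7 and 32.1 in mid and 9.54 and 6.94 in early anagen cells. Of 10 tested bulge markers, 7 had both mid anagen libraries above both early ones and 1 below, where 31.5% of all tested genes were higher and 30.9% lower. LOC102179515, described as keratin 15, overlapped between phases. It was at 182 and 241 in mid anagen, and at 414 in the female and 88.4 in the male of early anagen. The bulge markers LGR6 and CD34 were under 1 in every library, and the markers DCT of melanocytes, CDH5 of endothelium and PTPRC of immune cells were listed at 0 in all 4. Other markers on those 3 lists were detected. MITF, a melanocyte factor, was at 3.93 and 4.84 in mid and 3.34 and 4.40 in early anagen cells. ERG, an endothelial factor, was at 4.19 and 5.24 in mid and 0.88 and 0.33 in early anagen cells, and EGFL7, also endothelial, was at 7.10 and 5.16 in mid and 2.86 and 3.72 in early anagen cells. CD14, a monocyte marker, was at 12.6 and 8.52 in mid and 3.29 and 2.49 in early anagen cells. ERG, EGFL7 and CD14 were thus higher in both mid anagen libraries, but other markers on these lists were not. The endothelial PECAM1 was at 0.066 and 0.078 in mid and 0.31 and 0.28 in early anagen cells. The immune marker CD68 overlapped, at 4.41 and 2.40 in mid and 3.90 and 3.56 in early anagen cells. PMEL, of melanocytes, was at 2.40 and 2.08 in mid and 2.41 and 2.54 in early anagen cells. The part of all these markers in the results below was not tested.

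Of the 7 iron handling genes that passed the filter, serotransferrin had the largest log2(value + 1) difference between phases. LOC102172205 (GeneID 102172205) was at 57.2 in the female and 38.4 in the male library of mid anagen, against 3.54 in the female and 1.65 in the male library of early anagen. Both mid anagen libraries lay above both early anagen libraries, and the mean was 47.8 ± 13.3 in mid anagen and 2.59 ± 1.33 in early anagen cells (SD, n = 2 each). The log2 fold change was 3.79 (SE 0.32) on the log2(value + 1) scale, with 3.68 between the female libraries and 3.89 between the male libraries. By rank of abundance, the gene stood at 2390 and 3516 in the mid anagen female and male and at 10548 and 11433 in the early anagen female and male. In relation to its receptor, serotransferrin was at 2.88 and 1.77 times the TFRC level in the mid anagen female and male, and at 0.11 and 0.045 times it in the early anagen female and male.

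**Figure D1:**
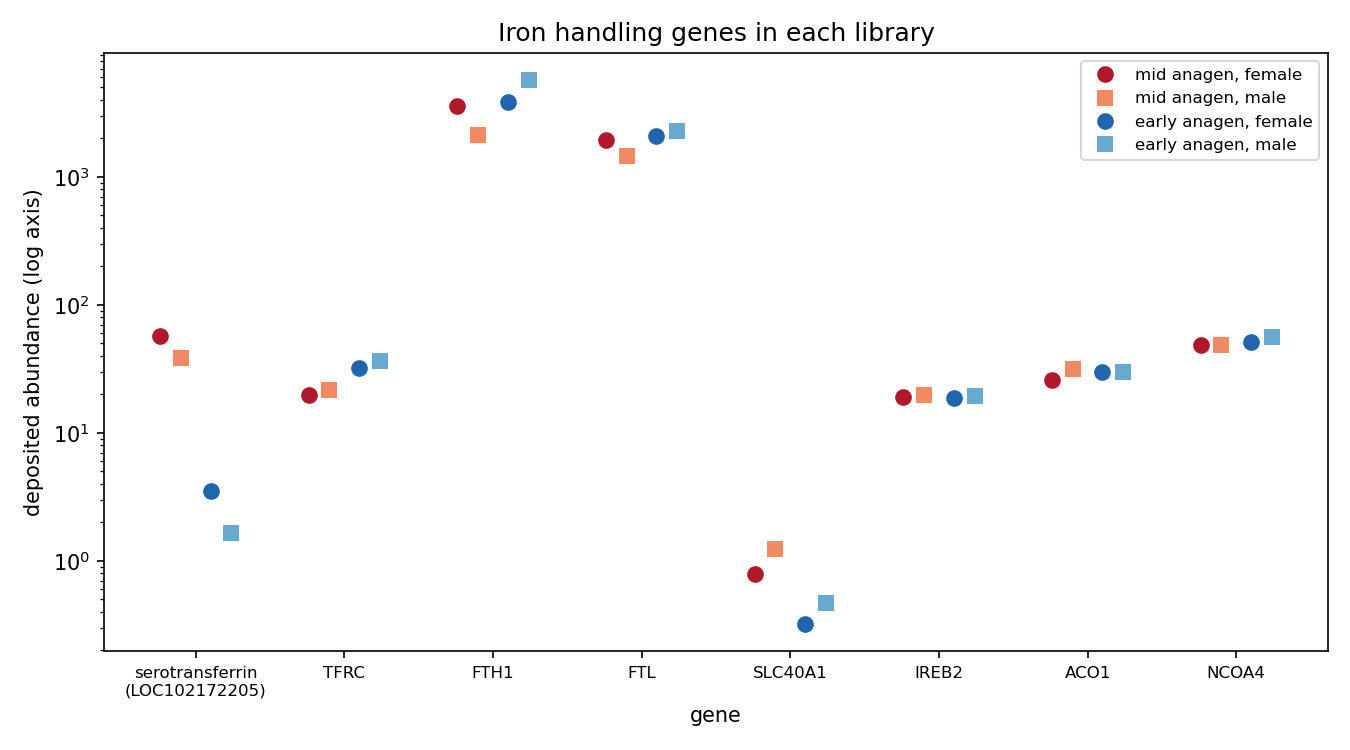
Deposited abundance (log axis) of the 8 iron handling genes found, in each library, with mid anagen in red and early anagen in blue, circles for female and squares for male libraries. Serotransferrin is at 57.2 and 38.4 in mid anagen against 3.54 and 1.65 in early anagen, while FTH1 and FTL lie far above the other genes and SLC40A1 lies below them, from 0.32 to 1.24.

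Other genes of the transferrin family were searched by description, since short reads can be split between near copies. LTF, lactotransferrin, an iron-binding protein of secretions, was at 0.81 and 3.01 in the mid anagen female and male, at 0.055 in the early anagen female and listed at 0 in the early anagen male. MELTF, a membrane-bound relative, was at 0.80 and 1.21 in mid anagen and 1.12 and 0.89 in early anagen cells. In the gene order of the ARS1.2 assembly, the neighbour on one side was LOC102172488, described as an inhibitor of carbonic anhydrase, a protein of the transferrin family. It was looked up after the serotransferrin values were seen, and stood at 28.8 and 15.5 in mid anagen and 3.42 and 5.30 in early anagen cells (log2 fold change 2.07, limma adjusted p = 0.0711). SRPRB, the neighbour on the other side, which encodes a subunit of the signal recognition particle receptor, overlapped between phases at 55.0 and 39.9 in mid and 40.4 and 51.2 in early anagen cells. How the counting divided reads between the related neighbour and serotransferrin is not known from the files, so the level of each is uncertain to that extent.

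Across the 4 libraries, the 5 genes with a symbol whose profile was most like serotransferrin were BGN, EFEMP1, MXRA5, FIBIN and FBN1. Likeness was the root mean square difference of log2(value + 1) after centring each gene on its mean, and it ran from 0.105 for BGN to 0.551 for FBN1. BGN, the matrix proteoglycan biglycan, was at 35.5 and 20.5 in mid anagen and 1.58 and 0.36 in early anagen cells. FBN1, the microfibril protein fibrillin, is also one of the fibroblast markers listed for the check of other cell types. Of the 16 markers of dermal papilla cells and fibroblasts, all were found, 12 could be tested, and 10 of the 12 had both mid anagen libraries above both early ones, as did 31.5% of all tested genes. COL1A1, a type I collagen chain, was at 58.6 and 19.8 in mid anagen and 0.18 and 0.99 in early anagen cells, and DCN, the proteoglycan decorin, was at 21.0 and 3.38 in mid anagen and listed at 0 in the female and at 0.077 in the male of early anagen. The summed level of the list was 1182 and 1101 in mid anagen and 931 and 1019 in early anagen cells, most of it S100A4 and VIM, and PDGFRA, TWIST1 and FAP were under 1 in every library. Not all tested markers moved with serotransferrin. S100A4 was lower in mid anagen, at 793 and 720 against 870 and 914.5 in early anagen cells. THY1 overlapped between phases, at 16.4 and 28.8 in mid and 39.4 and 23.0 in early anagen cells. The part of these markers in the serotransferrin difference was not tested. In bulk RNA, a change in the share of a cell type and a change in RNA per cell cannot be told apart.

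**Figure D2:**
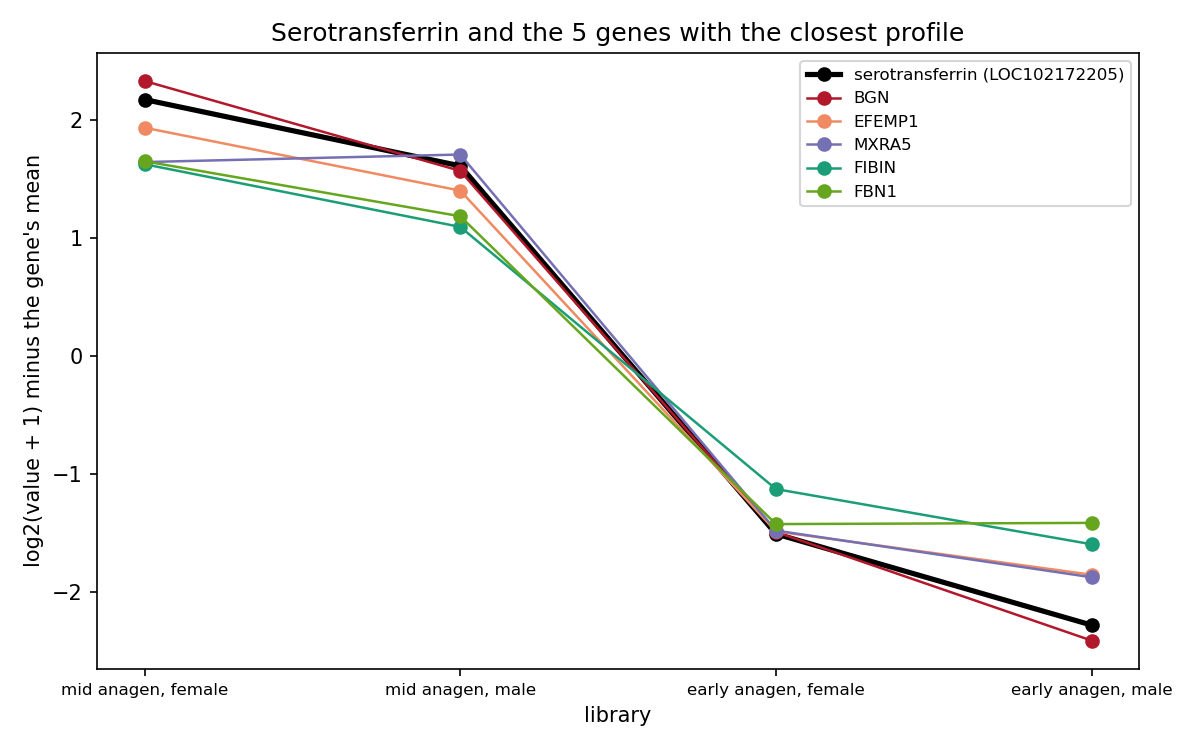
Profiles over the 4 libraries (x axis) of serotransferrin, in black, and the 5 genes with the closest profile, as log2(value + 1) minus each gene's mean (y axis). All 6 lines are above 0 in both mid anagen and below 0 in both early anagen libraries, with BGN the closest at a root mean square difference of 0.105.

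The receptor was lower where serotransferrin was higher. TFRC, the transferrin receptor (GeneID 102172197), was at 19.8 in the female and 21.7 in the male of mid anagen, against 32.1 in the female and 36.5 in the male of early anagen. The groups did not overlap, and the means were 20.8 ± 1.31 in mid and 34.3 ± 3.10 in early anagen cells (SD, n = 2 each), a ratio of 0.606. The log2 fold change was -0.70 (SE 0.15), with -0.67 between the female libraries and -0.72 between the male libraries. The limma adjusted p for TFRC was 0.0808. With sex as a second term it was 0.0331, from a fit with 1 residual degree of freedom per gene. When each library was rescaled to a common total the direction held at a smaller -0.37 (limma adjusted p = 0.188), and the groups still did not overlap. That rescaling moved the median of all tested genes to 0.32. The 4 named genes with the profile most like that of TFRC were DKC1, KRTCAP3, PDRG1 and TRAIP, with root mean square differences of 0.0043 to 0.0196. DKC1, the pseudouridine synthase dyskerin, was at 51.4 and 56.2 in mid anagen and 81.8 and 93.5 in early anagen cells. Dividing cells are known to carry more of this receptor. In the values as deposited, all 17 cell cycle genes on the marker list had both mid anagen libraries below both early ones, as did 30.9% of all tested genes. Their median log2 fold change was -0.94. The summed level of that list was 772 and 1108 in mid anagen and 1727 and 1869 in early anagen cells, and its part in the TFRC difference was not tested. TFR2, a second receptor known mainly from liver and red cell precursors, was at 1.24 and 1.25 in mid anagen and 0.86 and 0.67 in early anagen cells (limma adjusted p = 0.326).

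Ferritin mRNAs were among the most abundant in these cells in both phases. FTH1, the heavy chain with the ferroxidase site that oxidises iron for storage (GeneID 100860752), was at 3565 in the female and 2136 in the male of mid anagen, against 3823 in the female and 5675 in the male of early anagen. It ranked 23 and 36 by abundance in the mid anagen female and male and 27 and 18 in the early anagen female and male. FTL, the light chain, which helps to form the iron core (GeneID 102187344), was at 1933 in the female and 1441 in the male of mid anagen, against 2090 in the female and 2279 in the male of early anagen. For both chains the mid anagen libraries lay below the early ones, but the size differed between the sexes. FTH1 differed by -0.10 on the log2 scale between the female libraries and by -1.41 between the male libraries (mean -0.75, SE 0.41), and FTL differed by -0.11 between the female and by -0.66 between the male libraries (mean -0.39, SE 0.29).

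Both ferritin genes are short, and other short abundant genes also had medians below 0, though of other sizes. Among 292 other genes spanning up to 3000 bp in the ARS1.2 annotation with a mean of at least 50, log2 fold changes had a median of -0.40 between the female and -0.95 between the male libraries. FTH1 had -0.10 and -1.41, and FTL had -0.11 and -0.66. Removing the trend with gene span left FTH1 at -0.48 and FTL at -0.02, where the median of all tested genes was 0.02. Rescaling to a common total left FTH1 at -0.41 and FTL at -0.04, where that median was 0.32, against 0.01 as deposited. As a share of the library total, FTH1 was 0.382% and 0.253% in the mid anagen female and male and 0.358% and 0.478% in the early anagen female and male, so the groups overlapped on that scale. The FTL share was 0.207% and 0.171% in mid and 0.196% and 0.192% in early anagen cells, which also overlapped.

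Heavy chains outnumbered light chains at the mRNA level in every library. The ratio of FTH1 to FTL was 1.84 in the female and 1.48 in the male of mid anagen, against 1.83 in the female and 2.49 in the male of early anagen. The female libraries of the phases were alike and the male libraries lay on either side of them. Ferritin chains together stood at 277 and 165 times the TFRC level in the mid anagen female and male and at 184 and 218 times in the early anagen female and male, again with overlap. An exact permutation test of 2 libraries against 2 cannot give a two-sided p below 0.333, so no such test was made on these ratios. Other ferritin genes were at or near 0, with FTMT, the mitochondrial ferritin, listed at 0 in all libraries and LOC102172435, described as a ferritin light chain, at 0.079 and 0.046 in mid anagen and listed at 0 in both early anagen libraries.

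Export was represented by very little mRNA. SLC40A1, ferroportin, the iron exporter (GeneID 102182451), was at 0.79 in the female and 1.24 in the male of mid anagen, against 0.32 in the female and 0.47 in the male of early anagen. The mid anagen values were the higher ones, but only 1 library reached the value of 1 that the filter asks of 2, so the gene was not tested. SLC11A1, a metal transporter of phagocytes related to SLC11A2, was at 0.082 and 0.078 in mid and 0.147 and 0.219 in early anagen cells. At these levels the SLC40A1 log2(value + 1) difference of 0.52 understates the ratio of the SLC40A1 means, which was 2.57.

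The regulators and the ferritin cargo receptor lay within narrow ranges. IREB2 (GeneID 102187718) was at 19.1 and 19.9 in the female and male of mid anagen and at 18.6 and 19.3 in the female and male of early anagen. ACO1, cytosolic aconitase, which turns into the other iron regulatory protein when it loses its iron-sulphur cluster (GeneID 102184057), was at 25.6 and 31.6 in mid and 29.7 and 30.0 in early anagen cells. For both regulators the phases overlapped. NCOA4, the receptor that carries ferritin to the lysosome for iron release (GeneID 102183764), was at 48.7 and 48.4 in mid and 51.0 and 56.0 in early anagen cells, with the mid anagen pair below the early one. The log2 fold changes were 0.04 (SE 0.14) for IREB2, -0.07 (SE 0.16) for ACO1 and -0.14 (SE 0.14) for NCOA4. After rescaling to a common total they were 0.37, 0.27 and 0.20, so that the sign turned for ACO1 and NCOA4. On that scale the median of all tested genes was 0.32. With the span trend removed IREB2 was at -0.02, so no direction is given for these 3 genes. The ratio of IREB2 to ACO1 was 0.745 and 0.629 in the mid anagen female and male and 0.626 and 0.643 in the early anagen female and male.

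**Figure D3:**
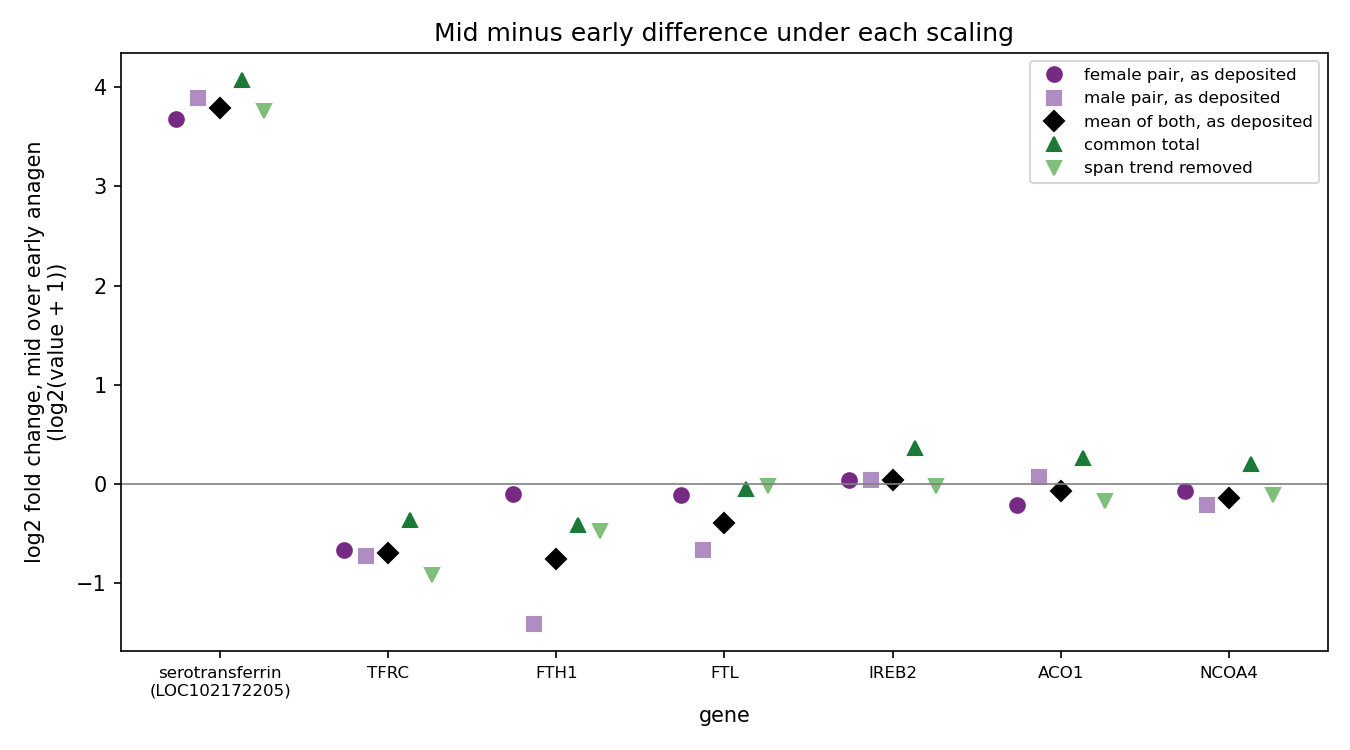
Log2 fold change of mid over early anagen, on the log2(value + 1) scale (y axis), for the 7 iron handling genes that passed the filter (x axis), in the female pair, in the male pair, as their mean, after rescaling to a common total and after removing the span trend. Serotransferrin stays between 3.68 and 4.07 and TFRC below 0 throughout, while FTL lies near 0 under both rescalings and NCOA4, ACO1 and IREB2 stand on both sides of 0. The median of all tested genes was 0.32 on a common total and 0.02 with the span trend removed.

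Of the 8 genes found, 7 passed the filter, and the limma fit over all 12486 tested genes called 1 of the 7, serotransferrin, at an adjusted p under 0.05. Over all tested genes 0.304% were called, 0.224% higher and 0.0801% lower in mid anagen. The call ended without the early anagen female (limma adjusted p = 0.0657), without the early anagen male (0.197) and with no filter on low values (0.105). With sex as a second term limma called 2 of the 7, serotransferrin and TFRC, where 1782 of the 12486 tested genes were called. The set was put together with this contrast known, so its calls and its fold changes are descriptions and support nothing further. The median log2 fold change of the 7 was -0.14, against 0.01 over all tested genes. In 5 of the 7 the libraries of the phases did not overlap, 1 higher and 4 lower in mid anagen, and 62.3% of all tested genes did not overlap either, 31.5% higher and 30.9% lower.

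Sex was not used to choose the set, and it was tested with phase as a second term. Limma called 0 of the 7 genes between male and female, with 1 of 7 at an unadjusted p under 0.05, while 0.144% of all tested genes were called and 11% were under 0.05 unadjusted. Serotransferrin was lower in the male library of each phase, with a log2 difference of -0.67 (SE 0.15) and a limma adjusted p of 0.172. The other 6 had male minus female differences of -0.15 for FTL to 0.15 for ACO1, with adjusted p-values from 0.773 to 0.975. With 1 library for each sex and phase, the fit has 1 residual degree of freedom per gene, and a difference that did not pass is not shown to be absent.

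The wider iron pathway was described with 6 lists by role, which hold 106 genes, 92 of them found and 80 tested. None of the 80 passed in the phase comparison by limma over all genes, with 7 higher and 18 lower in mid anagen at an unadjusted p under 0.05, while 13.2% of all tested genes were higher and 14.7% lower at that level. With sex as a second term 10 of the 80 passed, 5 higher and 5 lower, where 1782 of the 12486 tested genes passed. The median log2 fold change over the 80 was -0.22 and became 0.10 after rescaling to a common total, which moved the median of all tested genes to 0.32. Directions of whole lists below therefore hold for the values as deposited unless another scaling is named. Limma called 648 of all tested genes on a common total, against 38 as deposited.

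Genes of iron uptake and reduction had a median fold change of 0.27 on the log2 scale over 14 tested members, where that of all tested genes was 0.01. On a common total these medians were 0.53 and 0.32. At an unadjusted p under 0.05, 3 were higher and 0 lower, where 13.2% of all tested genes were higher and 14.7% lower. LCN2, lipocalin, which binds iron-loaded siderophores, was at 86.5 in the female and 14.4 in the male of mid anagen, against 6.93 in the female and 3.30 in the male of early anagen (log2 fold change 2.65, SE 0.82, limma adjusted p = 0.121). The mid anagen libraries were above the early ones, but the pair of them differed widely. Without the mid anagen female the LCN2 log2 fold change was 1.40 (limma adjusted p = 0.0689), and without the mid anagen male it was 3.91 (limma adjusted p = 0.00817). SLC22A17, described as a receptor for lipocalin, was at 7.15 and 6.07 in mid and 4.72 and 3.89 in early anagen cells (limma adjusted p = 0.141). STEAP4, a metalloreductase, was at 2.86 and 4.39 in mid and 1.69 and 1.50 in early anagen cells, STEAP2, a relative, was at 20.3 and 18.3 in mid and 33.4 and 21.7 in early anagen cells, and the endosomal reductase STEAP3 was at 41.4 and 43.4 in mid and 43.4 and 52.7 in early anagen cells. LRP1, which takes up haem bound to hemopexin among many other ligands, was at 24.1 and 14.4 in mid and 14.1 and 4.99 in early anagen cells, and SLC46A1, a folate transporter that also carries haem, was at 7.53 and 7.86 in mid and 6.08 and 5.63 in early anagen cells.

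Iron export and its control by hepcidin could hardly be read, since 4 of 12 genes found were tested. HAMP, hepcidin, CP, ceruloplasmin, BMP6 and TMPRSS6 were under 1 in every library. NEO1, neogenin, a partner of hemojuvelin, was at 12.7 and 10.3 in mid and 6.49 and 4.54 in early anagen cells. Its log2 fold change was 0.95 (SE 0.21, limma adjusted p = 0.0834, 0.0469 on a common total and 0.134 with the span trend removed). HFE, a partner of the transferrin receptor, was at 6.87 and 7.41 in mid and 9.74 and 11.7 in early anagen cells (limma adjusted p = 0.123), and ABCB6, a porphyrin transporter, was at 26.0 and 28.3 in mid and 30.7 and 42.0 in early anagen cells. FLVCR1, described as a haem exporter, overlapped at 14.0 and 15.2 in mid and 14.8 and 14.5 in early anagen cells.

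Genes of ferritin loading, ferritin turnover and control by the iron regulatory proteins had a median of 0.33 over 11 tested members, where that of all tested genes was 0.01. On a common total these medians were 0.64 and 0.32. EPAS1, a hypoxia-inducible factor whose mRNA carries an iron-responsive hairpin, was at 32.0 and 44.8 in mid and 21.2 and 19.1 in early anagen cells. Its log2 fold change was 0.88 (SE 0.20, limma adjusted p = 0.0841, 0.0497 on a common total and 0.113 with the span trend removed). Without the mid anagen female the EPAS1 log2 fold change was 1.115. CDC42BPA, a kinase, was at 9.79 and 10.8 in mid and 6.45 and 5.40 in early anagen cells. TAX1BP1, an autophagy receptor that works with NCOA4, was at 60.9 and 53.8 in mid and 39.4 and 39.8 in early anagen cells. Its limma adjusted p was 0.106, 0.0468 on a common total and 0.193 with the span trend removed. PCBP1, a chaperone that delivers iron to ferritin, was at 295 and 313 in mid and 419 and 488 in early anagen cells, with a limma adjusted p of 0.137. ZC3H12A, which encodes an endonuclease that degrades the receptor mRNA, was at 31.2 and 36.7 in mid and 28.5 and 19.4 in early anagen cells, and RC3H1, for a protein with a like role, was at 11.7 and 12.4 in mid and 9.98 and 8.86 in early anagen cells.

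**Figure D4:**
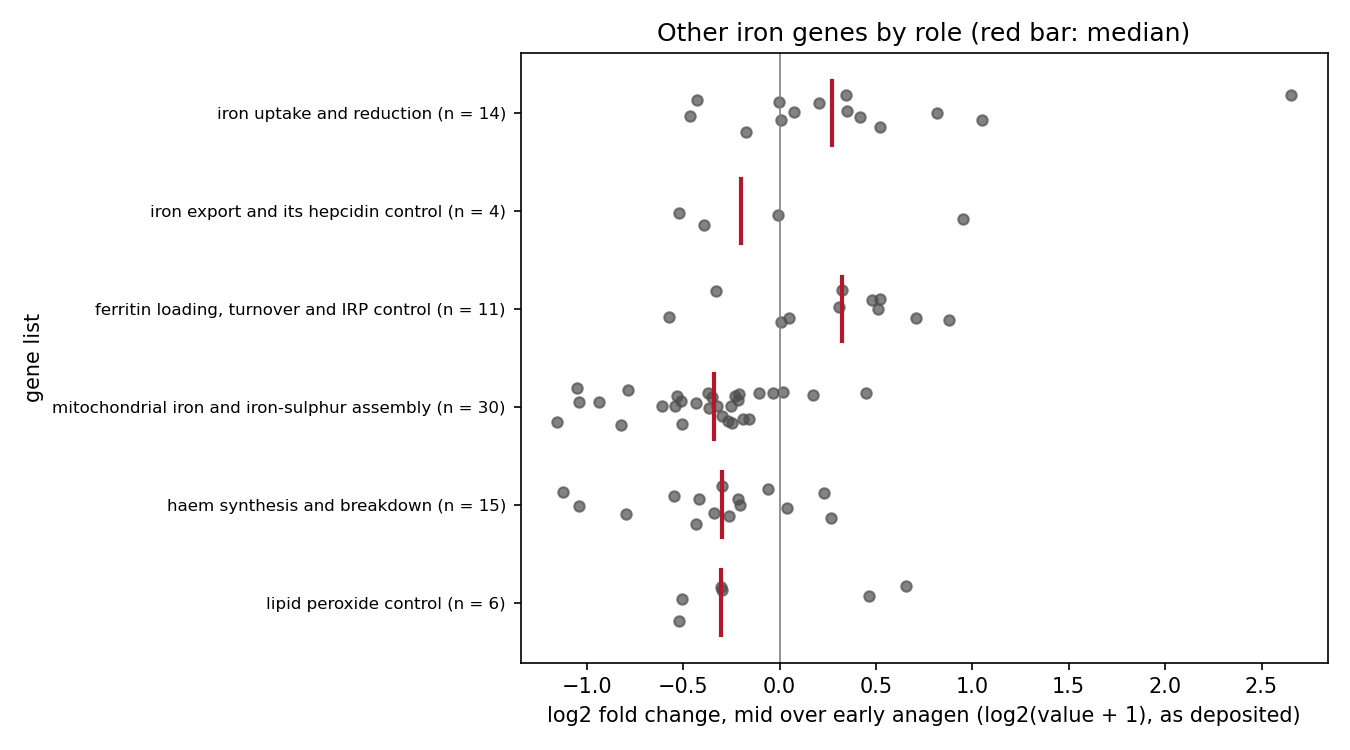
Log2 fold change of mid over early anagen, on the log2(value + 1) scale as deposited (x axis), for each of the tested genes of the 6 iron lists (y axis), with a red bar at the list's median. The medians are 0.27 for uptake, 0.33 for ferritin loading and control and -0.34 for mitochondrial iron and iron-sulphur assembly. The last became -0.01 on a common total, which moved the median of all tested genes from 0.01 to 0.32.

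Mitochondrial iron and iron-sulphur assembly genes had a median fold change of -0.34 on the log2 scale over 30 tested members, with 24 lower and 2 higher in both pairs, where 37.2% of all tested genes were lower and 39.3% higher in both. The median was -0.01 on a common total, where 14 were above and 16 below 0. The common total moved the median of all tested genes from 0.01 to 0.32, so the list stayed below it on both scales. At an unadjusted p under 0.05, 12 were lower and 0 higher, where 14.7% of all tested genes were lower and 13.2% higher. NUBP2, a scaffold of the cytosolic assembly, was at 19.1 and 20.8 in mid and 36.2 and 49.4 in early anagen cells (log2 fold change -1.05, SE 0.19, limma adjusted p = 0.0726). BOLA3, a late mitochondrial assembly factor, was at 69.6 and 41.1 in mid and 103 and 140 in early anagen cells, and GLRX5, a glutaredoxin that passes clusters on, was at 29.3 and 27.4 in mid and 40.8 and 46.9 in early anagen cells. SLC25A28, a mitochondrial iron importer, was at 32.9 and 33.1 in mid and 45.7 and 50.7 in early anagen cells, and SLC25A37, a relative picked out with its values in view, was at 65.9 and 64.7 in mid and 59.6 and 56.1 in early anagen cells. FAM96B, of the cytosolic targeting complex, was at 108 and 69.1 in mid and 153 and 208 in early anagen cells, and CISD1, an outer membrane iron-sulphur protein, was at 89.0 and 62.0 in mid and 122 and 167 in early anagen cells. The limma adjusted p was 0.0944 for BOLA3, 0.0975 for FAM96B and 0.1001 for CISD1 as deposited. With the span trend removed it was 0.118, 0.154 and 0.117. Without the mid anagen female the log2 fold changes were -1.53, -1.36 and -1.19.

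Haem synthesis and breakdown genes had a median of -0.30 over 15 tested members, where that of all tested genes was 0.01. On a common total these medians were 0.05 and 0.32. BLVRB, a biliverdin reductase, was at 182 and 172 in mid and 326 and 406 in early anagen cells (log2 fold change -1.04, SE 0.19, limma adjusted p = 0.0738). ALAD, an early enzyme of the porphyrin pathway, was at 22.0 and 18.9 in mid and 38.2 and 34.2 in early anagen cells. HMOX1, the inducible haem oxygenase that frees iron from haem, was at 17.6 in the female and 20.5 in the male of mid anagen, against 24.2 in the female and 74.4 in the male of early anagen. The early anagen male, which also held the highest FTH1 value, stood apart from the other libraries for HMOX1. The constitutive HMOX2 was at 50.8 and 55.9 in mid and 64.4 and 79.5 in early anagen cells, and SLC48A1, a haem transporter, was at 37.7 and 29.4 in mid and 41.0 and 58.7 in early anagen cells.

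Genes that limit or feed iron-dependent lipid peroxidation had a median of -0.30 over 6 tested members, where that of all tested genes was 0.01. On a common total these medians were 0.04 and 0.32. AIFM2, which regenerates a lipid antioxidant, was at 38.4 and 45.8 in mid and 67.6 and 53.3 in early anagen cells (limma adjusted p = 0.159), and LPCAT3, a lipid acyltransferase, was at 31.6 and 45.9 in mid and 49.1 and 61.7 in early anagen cells. GPX4, the lipid peroxide reductase, was at 389 and 481 in mid and 482 and 588 in early anagen cells. SAT1, a polyamine acetyltransferase, was at 507 and 340 in mid and 331 and 274 in early anagen cells. SLC7A11, the cystine importer, was at 15.3 and 13.7 in mid and 14.6 and 5.22 in early anagen cells, and ACSL4, a lipid ligase, was at 67.2 and 114 in mid and 105 and 111 in early anagen cells. Both of these overlapped between the phases.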

How the data were processed

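RNA-seq of 4 libraries was used, 2 per phase. The deposited values are a signal, a length-normalised abundance per gene that the authors rescaled between libraries, as the totals and median ratios show; they are no counts. The submitters' processing notes name kallisto 0.46.1 and sleuth 0.30.0. The genome build behind the values is not given in the sources used here. The scale was log2(value + 1), and the tests used limma 3.58.1 in R 4.3.3, with an intensity trend and Benjamini-Hochberg adjustment over the 12486 genes at 1 or more in at least 2 libraries, with a threshold of 0.05. Phase was the only term, and sex was tested with phase as a term. Of the gene IDs, 20294 matched the RefSeq table of the ARS1.2 assembly, used for gene order and spans. The genes and lists were chosen with earlier results of these data known. Named were the 8 genes found, up to 6 genes per list with the smallest p, near copies by description, and 5 genes of like profile, of which some are not reported here. Simulated data for the phase comparison had 12486 genes, of which 200 were changed. On the log2 scale, 82.2% of genes changed by 3 and 60.2% of genes changed by 2 were recovered, with 2.2 false calls on average. Smaller changes were also simulated, but their recovery was not recorded. Alternatives were other pseudocounts and filters, each library left out, a replicate block (sex as a second term), a common total and removal of the span trend.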

Additional observations from a re-analysis of the deposited data

Results flagged for a closer look

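For 3 genes the female pair and the male pair moved in opposite directions between mid and early anagen, which with 1 library per sex and phase was not tested. The log2 fold change was 0.073 in the male pair and -0.21 in the female pair for ACO1. It was 0.058 in the male pair and -0.070 in the female pair for FLVCR1, and 0.034 in the male pair and -0.64 in the female pair for ACSL4.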

How the results depend on the processing

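Serotransferrin stayed higher in mid anagen under all 11 alternatives, at log2 fold changes of 2.79 to 4.22, and its call ended without the early anagen female (adjusted p = 0.0657), without the early anagen male (adjusted p = 0.197) and with no filter (adjusted p = 0.105). TFRC and FTH1 kept their sign in all 11, at -0.91 to -0.37 and -1.12 to -0.39. The 38 calls over all genes became 18 with a pseudocount of 0.1, 0 with no filter (3843 at an unadjusted p under 0.05), 648 on a common total, of which 565 were higher, against 28 of 38 as deposited, and 0 to 733 with a library left out. Those fits assume that a phase left with 1 library has the spread of the other phase. The wider iron lists, with 0 calls as deposited, had 3 on a common total and 0 to 5 with a library left out. The replicate number is also the sex, and nothing shows that it pairs animals. A replicate block is therefore the phase fit with sex as a second term, with 1 residual degree of freedom per gene. A replicate block gave 1782 calls over all genes and 10 in the wider lists (5 higher, 5 lower). The limma adjusted p for TFRC was 0.0331 with that block and 0.0808 without it. The female minus male differences of the phases correlated at r = 0.292 across genes. Calls between the sexes, 18 as deposited, became 46 and 48 with pseudocounts of 0.1 and 5, 0 with no filter (1504 at an unadjusted p under 0.05), 101 with a filter of 5, 1 with sex alone, 396 on a common total and 9 with the span trend removed. The sign of small differences turned for FLVCR1 (0.31 on a common total, 0.0046 with the span trend removed, -0.058 to 0.046 with a library left out), GPX4 (0.043 on a common total), ACSL4 (0.036 on a common total, -0.68 to 0.070 with a library left out) and SLC7A11 (-0.0077 to 1.32 with a library left out). On a common total the median of all tested genes was 0.32. Beyond the library, filter or scaling changed, the cause was not tested. Leaving out a library was not run for sex, since no residual degrees of freedom remain.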
